A study of Mus musculus with 23 samples.

Results

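Ribosomal protein pseudogenes are described here in 23 subcutaneous B16-F1 melanoma tumors. They were taken as the genes whose biotype is a pseudogene, whose symbol is that of a ribosomal protein gene followed by -ps, with or without a number, and whose counts summed to 10 or more over the 23 tumors. This gave 148 pseudogenes of the 314 listed under such a symbol and of 56748 genes listed in all. The other symbols had no count in any tumor (100) or 1 to 9 counts (66). Just outside the limit were Rpl13-ps1 and Rps12-ps19 with 9 counts each, and just inside were Rpl21-ps7 and Rps24-ps2 with 10 each. The pseudogenes were thus selected on the sum of their counts, and their presence and level are given as a description with no test.

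B16-F1 is an established mouse melanoma line of C57BL/6 origin. The cells were implanted under the skin of DBA/2J mice aged 6 to 8 weeks, and 1 tumor gave 1 library. Mice received pentoxifylline (PTX, 60 mg/kg), norcantharidin (NCTD, 3 mg/kg) or both agents at those doses (MIX). By the intraperitoneal route the groups were CONTROL_IP (saline), PTX_IP, NCTD_IP and MIX_IP, with 2 tumors each. By the intratumoral route they were CONTROL_IT (DMSO, 4 tumors), PTX_IT (3), NCTD_IT (4) and MIX_IT (4). All groups carried the same implanted line, so each tumor mixes transplanted cells of 1 line with host cells of another strain. The labels name each route as a batch, so route and batch cannot be told apart. A tumor is named here by its group and its number in the labels.

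A ribosomal protein gene encodes a protein of the small (Rps) or large (Rpl) subunit of the cytosolic ribosome, the particle that translates messenger RNA. Most ribosomal protein pseudogenes arose when a processed messenger RNA was copied back into DNA and inserted elsewhere in the genome. Such a copy lacks the parent's introns and, as a rule, its promoter. It resembles the parent's messenger RNA so closely that a short read can match both places, and a count at the pseudogene may then hold reads from the parent or from a further copy. How the reads that match several places were counted, and whether strand was used, is not given in the sources used here, so every count below is the count assigned to a row and not a measure of transcription at that site.

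The stretches below show how little separates the counted copies from their parents. All are from GRCm39, 5′ to 3′ on the coding strand, and capitals mark the bases at which a pseudogene and its parent differ. Positions count from 1 at the A of the parent's start codon, and the parent's base comes first. Rpl23a-ps3, which had more counts than its parent, lies on chromosome 14 and differs from the parent's coding sequence by A116T alone. Coding positions 81 to 170 are at chr14:33892692-33892781 (+).
Rpl23a: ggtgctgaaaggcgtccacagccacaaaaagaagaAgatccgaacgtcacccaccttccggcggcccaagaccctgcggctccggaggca
Rpl23a-ps3: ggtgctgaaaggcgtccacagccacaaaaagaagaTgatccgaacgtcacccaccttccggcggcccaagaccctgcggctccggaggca

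Rps13 has 4 counted pseudogenes, of which Rps13-ps5 had at most 7 counts in a tumor. The other 3 are shown over the last coding bases, positions 394 to 453. Rps13-ps2 at chr7:88179654-88179713 (-) has none of the parent's bases changed over its whole length. Rps13-ps1 at chr8:87774741-87774800 (+) holds T411C and A429G, and Rps13-ps4 at chr8:120328912-120328971 (-) holds T411C in this stretch and C106A and G121C before it.
Rps13: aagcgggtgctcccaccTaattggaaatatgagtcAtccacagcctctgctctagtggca
Rps13-ps1: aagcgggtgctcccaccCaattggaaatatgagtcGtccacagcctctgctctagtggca
Rps13-ps2: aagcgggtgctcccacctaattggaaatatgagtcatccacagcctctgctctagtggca
Rps13-ps4: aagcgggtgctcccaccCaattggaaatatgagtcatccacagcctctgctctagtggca

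Rps18-ps3, whose fold changes had opposite signs in MIX_IP and MIX_IT, lies at chr8:107989425-107989880 (-), opposite 4930517G24Rik and inside no gene on its own strand. It carries G181C, A337C and C430T. Positions 331 to 450 are at chr8:107989431-107989550.
Rps18: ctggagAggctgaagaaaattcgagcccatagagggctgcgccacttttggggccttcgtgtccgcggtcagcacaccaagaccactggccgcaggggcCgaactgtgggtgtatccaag
Rps18-ps3: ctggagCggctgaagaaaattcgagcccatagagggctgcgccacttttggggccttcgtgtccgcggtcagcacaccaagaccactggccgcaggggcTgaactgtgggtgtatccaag

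Rpl21-ps15 and Gm10163 are copies of Rpl21 that share T336C and T432C and differ from each other at G378A, which Rpl21-ps15 alone carries. Gm10163 is listed as a pseudogene under another kind of symbol. Positions 326 to 445 are at chrX:149998201-149998320 (-) for Rpl21-ps15 and at chr9:88273215-88273334 (+) for Gm10163.
Rpl21: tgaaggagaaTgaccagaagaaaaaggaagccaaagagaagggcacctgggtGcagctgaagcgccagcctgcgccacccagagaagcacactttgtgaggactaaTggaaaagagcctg
Rpl21-ps15: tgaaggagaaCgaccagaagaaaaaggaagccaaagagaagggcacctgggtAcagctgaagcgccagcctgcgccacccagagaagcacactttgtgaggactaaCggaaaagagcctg
Gm10163: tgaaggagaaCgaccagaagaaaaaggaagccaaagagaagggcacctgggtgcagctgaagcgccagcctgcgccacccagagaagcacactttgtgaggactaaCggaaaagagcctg

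The 148 pseudogenes came from 50 parent genes, 89 from 31 genes of the large subunit and 59 from 19 of the small subunit. Of them, 141 are annotated as processed pseudogenes and 7 as transcribed processed pseudogenes. A single pseudogene was counted for 12 parents and 5 or more for 11 parents, led by Rpl31 with 10. They lie on 20 chromosomes, with 13 on X and none on Y. Over the 23 tumors they held 1651724 counts, and the 10 highest held 61.9% of these. The median pseudogene had 768.5 counts, 107 had 100 or more, 68 had 1000 or more and 29 had 10000 or more. A count in every tumor was found for 104.

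The 10 highest were, in order of counts, Rps27a-ps3 (156626 counts), Rps16-ps2, Rpl10a-ps1, Rpl31-ps8, Rpl7a-ps7, Rps12-ps9, Rpl36-ps2, Rps13-ps2, Rpl23a-ps3 and Rps15a-ps6 (52466 counts). Levels are given below as CPM, counts scaled to a common library total, with the totals adjusted between tumors by the trimmed mean of M-values (TMM). Rps27a-ps3, the copy of the gene whose product is a fusion of ubiquitin and a small subunit protein, had a mean of 1563 CPM and ranged from 1142 to 2015 CPM. Rps16-ps2 ranged from 824 to 2232 CPM and Rpl10a-ps1 from 721 to 1727 CPM. For these genes the highest tumor was under 3 times the lowest, whereas Rps13-ps2 ranged from 114 to 1575 CPM, a 13.9-fold range.

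More counts than the parent were found at 9 pseudogenes, while 78 had under 0.01 counts for each count of the parent. Rpl23a-ps3 stood farthest apart. It held 62830 counts against 1306 for Rpl23a, or 48.1 counts for each parent count and 87.1 times the parent's counts per kilobase of annotated exon. In CONTROL_IT it was at 821, 734, 732 and 732 CPM, where Rpl23a was at 14.9, 16.2, 15.1 and 15 CPM. No tumor had more counts at the parent than at the copy.

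Rps10-ps1 was the second such case, with 8149 counts against 1415 for Rps10 (5.76 counts for each parent count, or 26.9 per kilobase). Rpl10a-ps1 followed with 3.98, Rps12-ps9 with 2.09 and Rps16-ps2 with 1.74 counts for each parent count. Rpl10a-ps1 and Rps16-ps2 are identical to their parents over their whole length of 654 and 441 bases, and neither had another copy in the genome at 98% identity or more. Libraries of this kind are made from the 3′ ends of messages, so counts do not rise evenly with length and the values per kilobase are approximate.

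**Figure D1:**
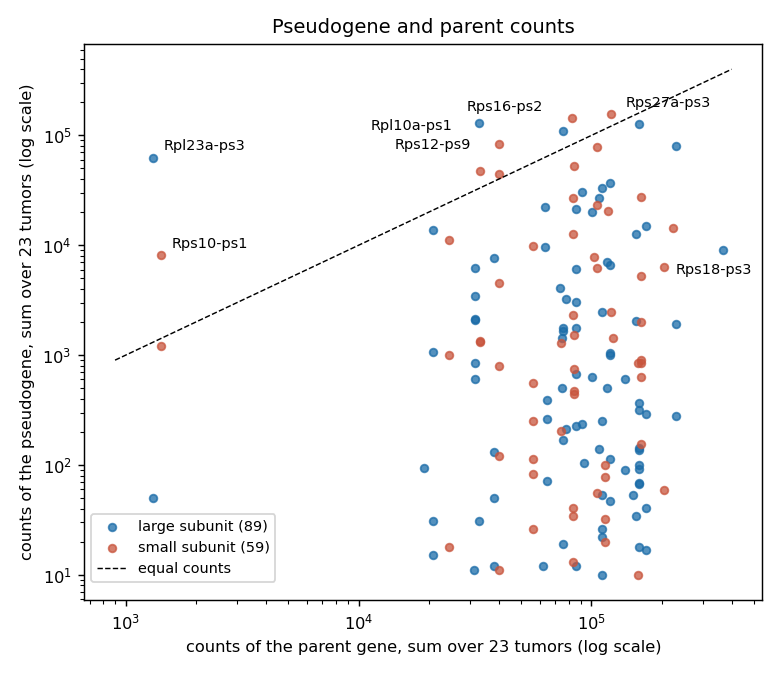
Counts of each pseudogene (vertical axis, log scale) against counts of its parent gene (horizontal axis, log scale), each summed over the 23 tumors, with 1 point for each of the 148 pseudogenes, blue for the large and red for the small subunit. The 9 points above the dashed line of equal counts include Rpl23a-ps3 and Rps10-ps1, far to the left because their parents had 1306 and 1415 counts.

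Identity to the parent could be measured for 147 of the 148 pseudogenes by alignment to the parent's messenger RNA. The median was 98.7% and the lowest was 87.5%, and 11 pseudogenes were identical to the parent over their whole length. The pseudogenes with more counts were closer to their parents. The median identity was 99.46% at 10000 or more counts, 99.09% at 1000 to under 10000, 98.41% at 100 to under 1000 and 97.18% at 10 to under 100. The number of counts for each parent count followed identity with a Spearman rho of 0.49 over these pseudogenes, a description over sequences that share parents and libraries. A further copy at 98% identity or more was present in the genome for 99 of the 148, and it was a row of the same count table for 92.

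Position in other genes was also recorded. On their own strand 43 pseudogenes lay within or over another gene, 19 of them over an exon, and 58 lay opposite a gene. No other gene overlapped 61. Examples are Rpl10a-ps1 over an exon of Akr1cl, Rps13-ps4 within Taf1c and Rps15a-ps6 within Nudcd3, in each case on the same strand. The part that reads of those genes have in the counts was not tested.

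Library totals ran from 2861578 to 6702374 counts (median 4013068), and a count of 3 was worth 0.448 to 1.05 CPM. All 7 melanocyte and melanoma markers looked at were counted, their sum being 15319 to 37163 CPM over the tumors. It was 26293 to 31953 CPM in CONTROL_IT, 24628 to 30986 in PTX_IT, 19269 to 27151 in NCTD_IT and 15319 to 28969 in MIX_IT. Some markers of other cells moved between groups. The sum of 6 fibroblast markers was 106 to 361 CPM in CONTROL_IT, 249 to 798 CPM in PTX_IT, 377 to 1656 CPM in NCTD_IT and 485 to 8542 CPM in MIX_IT. Malat1 and Neat1, nuclear RNAs, together ran from 245 to 342 CPM in CONTROL_IT, 283 to 1017 in PTX_IT, 811 to 1495 in NCTD_IT and 504 to 1049 in MIX_IT. The sum of 5 endothelial markers was 32.7 to 57.4 CPM in CONTROL_IT, 71.9 to 137 in NCTD_IT and 59.3 to 213 in MIX_IT. The 37 genes of the mitochondrial genome summed to 23955 to 27674 CPM in CONTROL_IT, 29786 to 38937 in PTX_IT, 24406 to 62610 in NCTD_IT and 36517 to 57446 in MIX_IT. Xist, the RNA that coats the inactive X chromosome of female cells, was at 0 to 0.566 CPM in CONTROL_IT, 1.28 to 11.6 CPM in PTX_IT, 5.19 to 13.6 CPM in NCTD_IT and 0 in all MIX_IT tumors. The Y-linked Ddx3y was at 1.03 to 8.98 CPM in CONTROL_IT and at most 0.279 and 0.294 CPM in PTX_IT and NCTD_IT. In CONTROL_IP only tumor 2 had Xist counts. The study describes its groups as sex-matched, and in bulk tumors fewer cells of a type and less RNA per cell cannot be told apart.

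Pseudogene counts differed between tumors of the same group more than parent counts did. Over the 68 pseudogenes with 1000 or more counts, the SD of log2 CPM within groups had a median of 0.35 (from 0.15 to 2.08), and over the 50 parents it had a median of 0.28 (from 0.12 to 1.39). The SD was larger than the parent's for 47 of the 68. Most parents had far more counts than these pseudogenes. Count level was not matched, and the part of counting noise in the difference was not tested. It was above 0.75 for 13 of the pseudogenes and for 1 parent, Rpl7a, which ran from 26.3 to 1206 CPM. The pseudogenes of largest SD were Rps2-ps8 (2.08), Rpl30-ps3 (1.56), Rpl35a-ps3 (1.53) and Rpl21-ps15 (1.51). These, and the pairs below that the selection rule for named genes did not give, were picked after their values were seen.

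Several of these pseudogenes were high in some tumors of a group and low in others of the same group. Rpl21-ps15 was at 519, 507, 539 and 396 CPM in CONTROL_IT but at 397, 32.2 and 53.9 CPM in PTX_IT. In NCTD_IT it was at 266, 48.5, 492 and 498 CPM, and in MIX_IT at 494, 465, 587 and 42 CPM. In the IP groups tumors 3 and 5 were low, at 46.6 and 49.3 CPM, and the other 6 were at 248 to 521 CPM. The low tumors were thus 1 each of PTX_IP, NCTD_IP, NCTD_IT and MIX_IT and 2 of PTX_IT, and no control tumor was among them. Rps2-ps8, a copy of the Rps2 gene for a small subunit protein, was at 189 CPM in CONTROL_IT 12 and 150.4 CPM in NCTD_IT 19, and at 9.17 CPM or less in 18 of the 23 tumors.

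**Figure D2:**
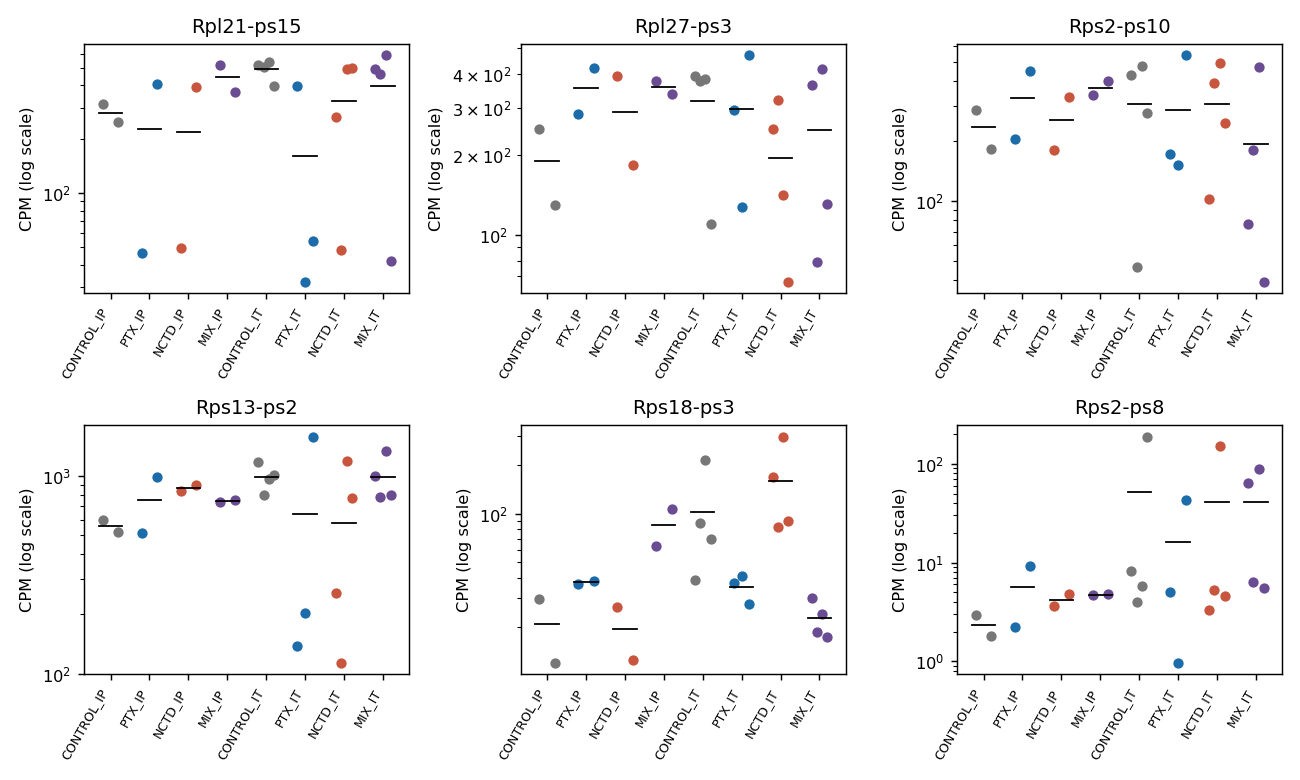
CPM (TMM-scaled, log scale, each panel with its own range) of 6 pseudogenes in each of the 23 tumors by group, with a line at each group mean. Rpl21-ps15, Rpl27-ps3, Rps2-ps10, Rps13-ps2 and Rps2-ps8 split tumors of the same group into high and low, while Rps18-ps3 separated MIX_IT (17.3 to 30.2 CPM) from CONTROL_IT (38.9 to 214 CPM).

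For some of them a near-identical copy elsewhere in the table was high in the tumors where the pseudogene was low. Rpl27-ps3, on chromosome 18, matches Gm11518 on chromosome 11 at every base of the aligned 411. In CONTROL_IT the pseudogene was at 392, 379, 385 and 109.8 CPM, and Gm11518 was at 40.9, 46.2, 37.8 and 883 CPM. In MIX_IT the pseudogene was at 365, 79.3, 417 and 130.1 CPM, and Gm11518 at 31.7, 645, 40.1 and 581 CPM. Gm11518 was above 400 CPM in 7 tumors, and the pseudogene was below 200 CPM in each of those. The sum of the pair ran from 281 to 992 CPM.

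Rps2-ps10, a copy of Rps2 on chromosome 18, and Gm12366 on chromosome 4, at 98.2% identity over 975 bases, showed this in some tumors only. Gm12366 was at 1.8 CPM or less in 14 tumors and at 83 to 357 CPM in the other 9. In CONTROL_IT Rps2-ps10 was at 432, 46.7, 475 and 278 CPM and Gm12366 at 1.54, 286, 0.76 and 268 CPM. The sum of the pair ran from 182 to 547 CPM, against 39.3 to 541 CPM for Rps2-ps10 alone. Rpl21-ps15 and Gm10163 together ran from 100.2 to 693 CPM, and Gm10163 was at 259 to 308 CPM in 4 of the 6 tumors where Rpl21-ps15 was low.

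**Figure D3:**
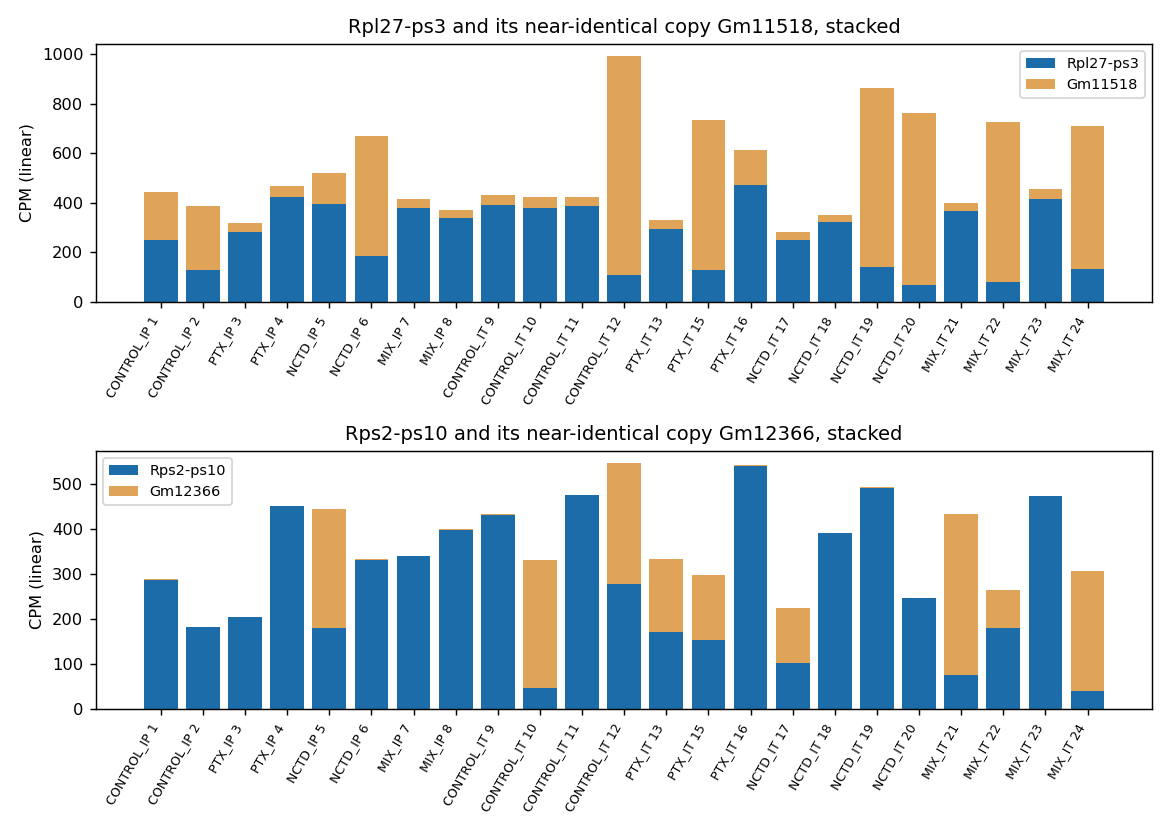
CPM (TMM-scaled, linear axis) of Rpl27-ps3 (blue) stacked with Gm11518 (orange), above, and of Rps2-ps10 (blue) stacked with Gm12366 (orange), below, with 1 bar for each of the 23 tumors. For Rpl27-ps3, tumors with a tall orange part have a short blue part, as in CONTROL_IT 12 (109.8 against 883 CPM). For Rps2-ps10 this holds in some tumors only, as in CONTROL_IT 10 (46.7 against 286 CPM) but not in CONTROL_IT 12.

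Summing each pseudogene with its listed copies narrowed the spread in most cases. For the 50 pseudogenes with 1000 or more counts and a listed copy, the SD of log2 (CPM + 1) over the 23 tumors was smaller after summing for 41, and its median went from 0.39 to 0.29. For Rpl21-ps15 it went from 1.48 to 0.44, and for Rpl27-ps3 from 0.85 to 0.41. For Rps13-ps2 it went only from 1.01 to 0.83, and Rpl23a-ps3 became more variable, from 0.23 to 0.31. Sums over correlated or unrelated rows differ in spread by construction as well, and no test was made.

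The Rps13 copies showed another pattern. In PTX_IT Rps13-ps2 was at 138, 203 and 1575 CPM, and Rps13-ps4 at 2.23, 13.5 and 7.19 CPM. In NCTD_IT Rps13-ps2 was at 255, 114, 1179 and 770.5 CPM, and Rps13-ps4 at 12.7, 4.99, 129.7 and 70.7 CPM. Both were low in PTX_IT 13 and 15 and in NCTD_IT 17 and 18, and Rps13-ps4 alone was low in PTX_IT 16 and in CONTROL_IT 9. The control tumors of both routes had 517 to 1174 CPM of Rps13-ps2. In PTX_IT 13 and 15 the parent Rps13 was at 1846 and 1798 CPM, its 2 highest values, but in NCTD_IT 18 it was at 741 CPM. Rps13 with these 2 and Rps13-ps1 summed to 968 to 2933 CPM.

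Summed over all 148, the pseudogenes held 1.12% to 2.09% of the counts of a library. For every 1000 counts of their parents they had 267 ± 57.4 in CONTROL_IP, 280 ± 43.4 in PTX_IP, 331 ± 12.0 in NCTD_IP and 345 ± 0.0483 in MIX_IP (SD, n = 2 each). In the IT groups they had 334 ± 27.3 in CONTROL_IT (n = 4), 341 ± 26.8 in PTX_IT (n = 3), 379 ± 65.0 in NCTD_IT (n = 4) and 368 ± 75.7 in MIX_IT (n = 4). The 2 tumors of NCTD_IP and of MIX_IP were above both CONTROL_IP tumors (307 and 226), and the IT groups overlapped. The excess over the control changed with single tumors. Leaving out CONTROL_IP 1 or 2 gave 53.3 and -27.8 for PTX_IP (12.7 with all tumors), 105 and 23.5 for NCTD_IP (64.0) and 119 and 37.6 for MIX_IP (78.1). PTX_IP also changed without tumor 3 (43.5) or 4 (-18.0). In the IT groups the excess of NCTD_IT (45.0) was 76.9 without tumor 17, that of MIX_IT (33.8) was -1.57 without tumor 23, 55.5 without 24 and 20.9 without CONTROL_IT 9, and that of PTX_IT (6.57) ran from -6.32 without CONTROL_IT 9 to 22.01 without PTX_IT 13.

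**Figure D4:**
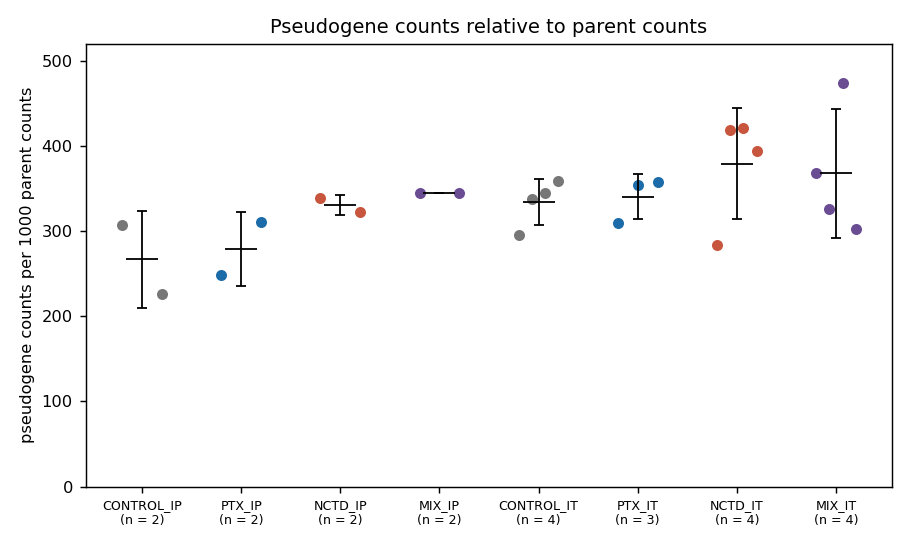
Pseudogene counts per 1000 counts of their parent genes in each of the 23 tumors (points) by group, with the mean (horizontal line) and SD (bars). CONTROL_IP lies lowest with tumors at 226 and 307, and NCTD_IT and MIX_IT spread widest, with single tumors at 284 and 474.

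The IP comparisons asked whether the pseudogenes differed between each treatment and saline. A log2 fold change was estimated for 98 of the 148, those with enough counts, and the other 50 were left out. In the IP tumors most were higher than in CONTROL_IP, 85 of 98 in PTX_IP, 78 in NCTD_IP and 80 in MIX_IP. The median log2 fold changes were 0.36, 0.32 and 0.38, against 0.23, 0.14 and 0.06 for the 50 parents and 0.01, -0.01 and -0.01 for all genes tested. Mitochondrial genome counts moved with these comparisons, at 36721 to 41768 CPM in CONTROL_IP and, with no overlap, 24516 to 27035 in PTX_IP, 27846 to 29340 in NCTD_IP and 33781 to 35854 in MIX_IP, and their part in the result was not tested. The fibroblast sum was 412 to 1117 CPM in CONTROL_IP and 255 to 1119 CPM in the treated IP tumors. The 3 comparisons share the 2 control tumors. No pseudogene passed an adjusted p of 0.05 in edgeR, where 0% of all genes passed in each comparison. At an unadjusted p below 0.05, 8 were higher and none lower in PTX_IP, beside 5.3% of all genes tested (3% higher and 2.3% lower). In NCTD_IP 14 were higher and 1 lower, beside 3.59% of all genes (1.92% higher and 1.67% lower). In MIX_IP 14 were also higher and 1 lower, beside 2.94% of all genes (1.39% higher and 1.55% lower). Leaving out 1 tumor leaves 1 in a group of 2, so only medians are given here for such fits. The counts also changed with the tumor left out, and nothing is concluded from them. The medians ran from 0.017 (without tumor 4) to 0.51 in PTX_IP and from 0.21 (without tumor 5) to 0.44 in NCTD_IP. In MIX_IP they ran from 0.25 to 0.45.

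Single IP results had the following values. Rps12-ps9, a copy of the gene for small subunit protein S12, was at 543 and 443 CPM in CONTROL_IP, 674 and 763 in PTX_IP, 801 and 789.5 in NCTD_IP and 655 and 688 in MIX_IP. All 6 treated tumors were above both controls. The log2 fold change was 0.69 ± 0.18 (standard error) in NCTD_IP, with an edgeR adjusted p of 0.999. The parent Rps12 was lower than in CONTROL_IP in all 6 treated tumors, with log2 fold changes of -0.34, -0.38 and -0.46 in the same order of groups. Rpl36-ps2, a copy of a large subunit gene, was at 575 and 416 CPM in CONTROL_IP and at 561 to 927 CPM in the treated tumors.

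Rpl17-ps10 was at 18.4 and 20.4 CPM in CONTROL_IP and at 38.3 and 32.1 CPM in PTX_IP (log2 fold change 0.86 ± 0.24, edgeR adjusted p = 0.906). Rpsa-ps2, a copy of the gene for the laminin receptor and small subunit protein, was at 10.7 and 14.7 CPM in CONTROL_IP and at 21.9 and 24.5 CPM in PTX_IP (0.86 ± 0.26). In both the PTX_IP tumors lay above the controls. Rpl9-ps7 was the lower one, at 24.8 and 83.5 CPM in CONTROL_IP against 19.1 to 30.2 CPM in the 6 treated tumors. Its negative fold change rested on CONTROL_IP 2, and without that tumor the value for PTX_IP was 0.10 rather than -1.02. Rps13-ps4 had log2 fold changes of 0.37, 0.93 and 0.48 in PTX_IP, NCTD_IP and MIX_IP.

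The intratumoral comparisons gave values of the other sign. The median log2 fold changes of the 98 pseudogenes were -0.19 in PTX_IT, -0.29 in NCTD_IT and -0.29 in MIX_IT, against -0.27, -0.56 and -0.42 for the parents and 0.02, 0.03 and 0.01 for all genes tested. Lower than CONTROL_IT were 68, 71 and 74 of the 98. The part of the melanoma, fibroblast, endothelial, erythroid, neutrophil, nuclear and mitochondrial RNA that moved with these groups was not tested. The 3 comparisons share the 4 control tumors. At an unadjusted p below 0.05, PTX_IT had none higher and 8 lower, beside 6.35% of all genes (4.18% higher and 2.16% lower). NCTD_IT had 3 higher and 20 lower, beside 21.6% (11.6% higher and 10% lower). MIX_IT had none higher and 19 lower, beside 13% (7.88% higher and 5.11% lower). The 23.5% of pseudogenes at that p in NCTD_IT is thus close to the share of all genes. Leaving out PTX_IT 15 and 16 in turn gave 2 and 20 for PTX_IT with medians of -0.12 and -0.33. Leaving out PTX_IT 13 gave 5, and leaving out CONTROL_IT 12 gave 11 for MIX_IT. The share of all genes in these fits is not given here, so these counts have no background to be read against. When the Xist level was added to the model, the medians were 0.11 in PTX_IT and 0.045 in NCTD_IT, groups that Xist separates from CONTROL_IT.

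**Figure D5:**
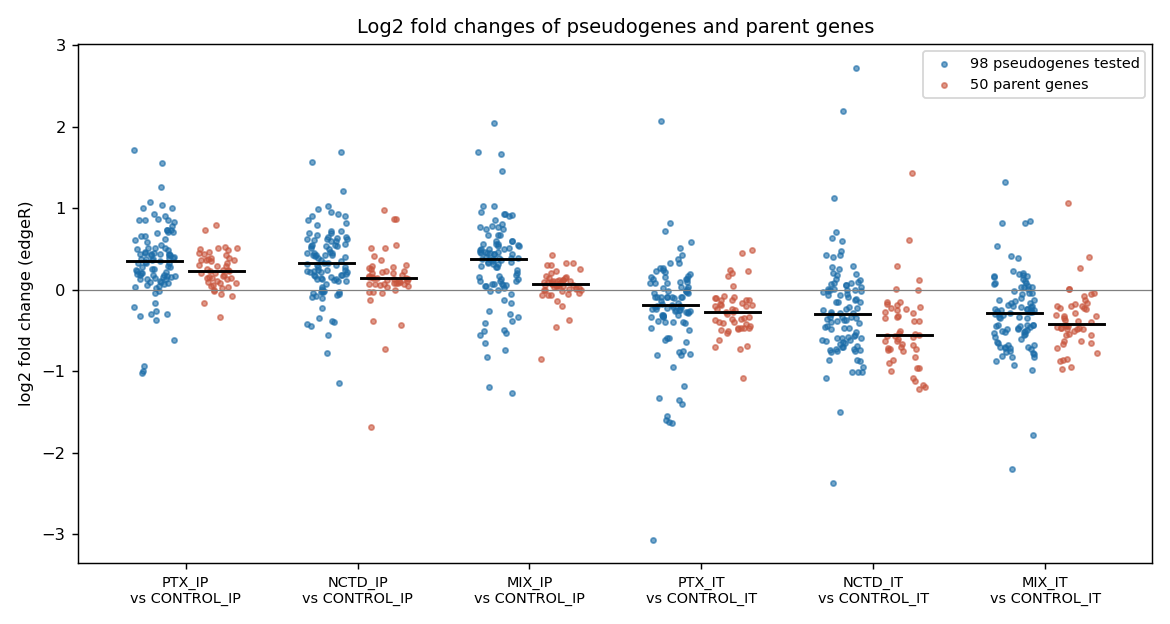
Log2 fold change (edgeR) of each of the 98 pseudogenes tested (blue) and the 50 parent genes (red) in the 6 comparisons with the control of the same route, with a line at each median. The medians of the pseudogenes lie at 0.32 to 0.38 in the IP comparisons and at -0.29 to -0.19 in the IT comparisons.

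In NCTD_IT 1 pseudogene passed an adjusted p of 0.05 in edgeR, in a comparison where 1.37% of all genes passed, and none did in PTX_IT or MIX_IT, where 0% of all genes passed. The count in NCTD_IT was 0 without CONTROL_IT 9, 11 or 12 and without NCTD_IT 17 or 18, fits whose share of all genes is not given here. It was also 0 with the Xist level in the model, where 0% of all genes passed. DESeq2 called 8 pseudogenes in NCTD_IT, where 3.29% of all genes passed.

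Of the parents, Rpl10a and Rpl29, both of the large subunit, fell in NCTD_IT (log2 fold changes -1.12 and -1.21, edgeR adjusted p = 0.0363 for both). With the Xist level in the model neither passed, and 0% of all genes did. The share of all genes at an unadjusted p below 0.05 was then 5.68% rather than 21.6%. The values below are from the model without Xist. Rpl10a was at 506, 359, 423 and 489 CPM in CONTROL_IT and at 257, 177, 191 and 194 CPM in NCTD_IT, with no overlap. Its copy Rpl10a-ps1 was at 1513, 1464, 1656 and 1727 CPM in CONTROL_IT and at 969, 1323, 1662 and 1048 CPM in NCTD_IT, with 1 tumor inside the control range (log2 fold change -0.35 ± 0.19, adjusted p = 0.298). Of the 45 large subunit genes tested from a list of 47, these 2 passed. At an unadjusted p below 0.05, 29 of the 45 were lower and none higher, and of 33 small subunit genes, none of which passed, 16 were lower and 2 higher, beside the 10% of all genes lower and 11.6% higher. The large subunit pseudogenes had a median of -0.40 and the small subunit ones -0.07 in NCTD_IT.

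Rps18-ps3 differed most from its controls in the MIX groups. It was at 38.9, 87.9, 214 and 69.9 CPM in CONTROL_IT, 37.1, 40.9 and 27.7 CPM in PTX_IT, 168, 83.1, 299 and 89.9 CPM in NCTD_IT and 30.2, 18.7, 24 and 17.3 CPM in MIX_IT. All 4 MIX_IT tumors were below the 4 controls, and the NCTD_IT tumors were within or above the control range. In the IP groups it was at 29.7 and 12 CPM in CONTROL_IP, 37 and 38.4 in PTX_IP, 26.6 and 12.4 in NCTD_IP and 62.9 and 107 in MIX_IP. Both MIX_IP tumors were above both controls. The log2 fold changes were -2.20 in MIX_IT, -1.55 in PTX_IT, 0.64 in NCTD_IT and 2.05 in MIX_IP. The value in NCTD_IT was 0.15 without NCTD_IT 19, 0.37 without CONTROL_IT 9 and 1.30 without CONTROL_IT 11, and with the Xist level in the model it was 1.69. That in PTX_IT was -0.90 without CONTROL_IT 11 and -0.53 with Xist. The edgeR adjusted p was 0.122 in MIX_IT and 0.999 in MIX_IP, while DESeq2 gave 0.00105 and 0.0476 (0.618% and 0.00846% of all genes passed in DESeq2). The parent Rps18 was at 2326 to 3272 CPM in CONTROL_IT and 1415 to 2391 CPM in MIX_IT.

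The following IT results did not pass the test in edgeR. Rpl30-ps8, a copy of a large subunit gene, was at 62.3, 71.9, 71.1 and 85.2 CPM in CONTROL_IT and at 26.8, 37.9, 49.1 and 46.4 CPM in NCTD_IT (log2 fold change -0.86 ± 0.21, adjusted p = 0.0538, and -0.48 with Xist in the model). Rps10-ps1 was at 109.7, 94, 106 and 107 CPM in CONTROL_IT and at 76.2, 52.9, 69.1 and 67.7 CPM in NCTD_IT (-0.65 ± 0.16, adjusted p = 0.0555). In both the groups did not overlap. The parent Rps10, at 4.81 to 15.7 CPM in CONTROL_IT and 8.53 to 33.5 CPM in NCTD_IT, had a log2 fold change of 1.43 ± 0.44 (adjusted p = 0.0845).

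Some large fold changes came from 1 or 2 tumors. Rps6-ps3, a copy of the gene for a small subunit protein that is phosphorylated downstream of mTOR, was at 4, 15.6, 167 and 4.8 CPM in NCTD_IT and at 3.6 to 9.2 CPM in CONTROL_IT. Its log2 fold change of 2.72 ± 0.88 (edgeR adjusted p = 0.0937) was 0.17 without tumor 19. Rpl30-ps3 was at 4.74, 121 and 8.73 CPM in PTX_IT and at 65, 114, 5.53 and 5.6 CPM in NCTD_IT, against 4.38, 5.48, 5.29 and 27.2 CPM in CONTROL_IT. Its log2 fold change of 2.07 in PTX_IT was -0.63 without tumor 15 and 3.12 without CONTROL_IT 12. Rps13-ps4, described above, had -3.07 ± 0.97 in PTX_IT (adjusted p = 0.758), where all 3 tumors were at or below 13.5 CPM and CONTROL_IT 9 was at 7.72 CPM.

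In NCTD_IT the copies of 1 parent spanned both signs in the families of Rpl30, Rpsa, Rpl17, Rps15a and Rps12 and not in that of Rpl35a. The 5 copies of Rpl30 ran from -1.50 to 2.19 on the log2 fold change scale in NCTD_IT, and the 4 tested copies of Rpl35a from -2.37 to -0.0013. The -2.37 was that of Rpl35a-ps3, at 7.72, 0.219, 73.3 and 8.49 CPM in CONTROL_IT and 3.11 to 6.17 CPM in NCTD_IT, so that CONTROL_IT 11 alone was far above the treated tumors and CONTROL_IT 10 was below them. The 7 copies of Rpsa ran from -1.01 to 0.40 in NCTD_IT, where Rpsa had 0.61. The 6 copies of Rpl17 ran between -0.48 and 0.29, and the 5 of Rps15a between -0.58 and 0.20. The 4 tested copies of Rps12 ran between -0.39 and 0.43. Copies of 1 parent can share reads and are not independent.

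The difference between routes was tested directly, as the IT effect minus the IP effect, in 103 pseudogenes. No pseudogene passed in edgeR, where 0% of all genes passed. At an unadjusted p below 0.05, 11 passed for PTX, 22 for NCTD and 19 for MIX, each with the lower effect by the IT route, beside 5.23%, 10.8% and 7.44% of all genes in either direction and 2.64%, 5.34% and 2.69% with the lower effect. The smallest p was that of Rps18-ps3 for MIX, with a difference of -4.22 ± 0.82 (adjusted p = 0.295). DESeq2 called no pseudogene for PTX, Rps18-ps3 for MIX (0.0207% of all genes passed) and 3 for NCTD, Rpl5-ps1 and Rpl36a-ps2 among them (0.268%).

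The ratio of a pseudogene to its parent within a tumor does not depend on library size, and it was compared for 24 named pseudogenes in the 6 comparisons. None of these 144 exact permutation tests passed after adjustment (smallest Benjamini-Hochberg p = 0.558). With these group sizes and this number of tests none could have passed, so nothing is concluded from that outcome. The smallest p the design allows is 0.333 for 2 against 2 tumors, 0.0571 for 3 against 4 and 0.0286 for 4 against 4, and 4 tests were at this last value. In NCTD_IT the log2 ratio to the parent was higher by 0.67 for Rpl23a-ps3 and by 0.58 for Rps15a-ps6, and for Rpsa-ps2 the difference was -0.83. In MIX_IT that of Rps10-ps1 was -1.71. In these 4 the ratios of the 4 treated tumors did not overlap those of the controls. An exact permutation p of 0.0286 requires this, so it is no further result.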

How the data were processed

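RNA of 23 tumors was made into 3′ mRNA libraries and sequenced as paired reads. Reads were trimmed (Trimmomatic) and mapped by STAR (version 2.7.11b) on GRCm39, and the authors deposited raw read counts per gene. Strand, multiple matches and molecular identifiers are not given in the sources used here.

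Pseudogenes and gene lists were chosen with earlier results of these data known. Sequences were read from GRCm39. Identity to the parent was measured by alignment to the parent's messenger RNA, and a further copy was a match at 98% identity or more over 95% or more of the pseudogene.

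Counts were tested in edgeR 4.0.16 (R 4.3.3, limma 3.58.1) with the quasi-likelihood test, TMM scaling and filterByExpr (minimum count 10, minimum total 15). Each treated group was set against the control of its route in 1 model of the 4 groups, which tested 12424 genes (IP) and 12480 (IT). The route difference used all 23 tumors and 13395 genes. P-values were two-sided and adjusted by Benjamini-Hochberg over all genes tested. They test a difference between groups against the spread between tumors, which was estimated over all the groups in a model. The step was tested on simulated data. Between tumors of 1 group counts differed by 8.80 to 71.8 times the sampling noise (chi-square over degrees of freedom), so no pair of tumors was treated as 1 library. Ratios to the parent used log2 of raw counts with 0.5 added and an exact permutation test. The floor of 3 counts reflects counting error only.

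Named pseudogenes were the 10 highest by mean CPM, every one passing an adjusted p of 0.05, the 2 of smallest p in each direction and comparison, the 5 with most counts for each parent count, and Rps18-ps3, with their parents. Others are said to be picked by value, and 1 result that the rule gives is not reported here. DESeq2 (1.42.0) and its size factors, 2-group and 23-tumor models, no filter, Xist as a covariate, other count limits, another pseudocount, summed copies (added after the data were seen) and leaving out each tumor were the alternatives.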

Additional observations from a re-analysis of the deposited data

Results flagged for a closer look

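Of 72 values (24 named pseudogenes in the 3 groups of 4 tumors), 8 had a tumor whose gap to its nearest neighbor, as a share of the group's range, was above the critical value of 0.829. Chance flags about 1 in 20 such groups.

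CONTROL_IT 12 was the highest tumor for 3 of them, with gaps of 0.951 for Rpl9-ps7 (117 CPM against 25 to 27), 0.882 for Rpl30-ps3 (27.2 against 4.38 to 5.48) and 0.841 for Rpl36-ps2 (986 against 802 to 828). CONTROL_IT 9 was the highest for Rpl23a-ps3 (0.971, 821 CPM against 732 to 734) and the lowest for Rps13-ps4 (0.976, 7.72 CPM against 78.9 to 83.5).

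In MIX_IT, tumor 22 was the highest for Rpsa-ps2 (0.960, 73 CPM against 15 to 16.1) and tumor 24 the lowest for Rpl17-ps10 (0.934, 10.3 CPM against 17.3 to 18). Tumor 23 was the lowest for Rps6-ps3 (0.848, 6.31 CPM against 7.83 to 8.14).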

How the results depend on the processing

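No paired analysis was possible because each tumor has a number of its own in the labels. Over the alternatives, 288 log2 fold changes of named pseudogenes kept their sign and their side of the threshold, 20 newly passed and 6 turned sign. The sign turned for Rpl9-ps7 in PTX_IP with Xist as a covariate and without CONTROL_IP 2 (0.10 in both), for Rps18-ps3 in NCTD_IP without CONTROL_IP 1 (0.69) or NCTD_IP 6 (0.38), and for Rpl30-ps3 in PTX_IT with Xist as a covariate (-1.90) or without PTX_IT 15 (-0.63). The causes were not tested.

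The number of pseudogenes passing an adjusted p in PTX_IP, NCTD_IP, MIX_IP, PTX_IT, NCTD_IT and MIX_IT (0, 0, 0, 0, 1 and 0) was 3, 4, 4, 8, 11 and 4 with no filter, beside 0.3%, 0.3%, 0.216%, 0.826%, 4.43% and 1.35% of all genes. With no filter and in DESeq2, here and below, all genes means every gene with a count in the tumors fitted. The pseudogenes were required to have 10 or more, so these shares are over an unlike set and are not a matched background. DESeq2 on 4 groups gave 1 in MIX_IP (0.00846% of all genes), 8 in NCTD_IT (3.29%) and 4 in MIX_IT (0.618%). On 2 groups it gave 1 in NCTD_IP (0.0373%), 2 in MIX_IP (0.0384%), 11 in NCTD_IT (5.87%) and 5 in MIX_IT (0.981%). In edgeR NCTD_IT had 7 with 2 groups (8.4% of all genes) and 7 with all 23 tumors (5.8%), and with Xist as a covariate 0 (0%), where MIX_IT had 1 (0.609%). Route differences had 5 for PTX (0.378%), 10 for NCTD (0.974%) and 5 for MIX (0.478%) with no filter, and 3 for NCTD (0.268%) and 1 for MIX (0.0207%) in DESeq2.

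The numbers at an unadjusted p in the 3 IP comparisons (8, 15 and 15) were 20, 25 and 24 with no filter (4.12%, 3.26% and 3.15% of all genes), 3, 9 and 7 with 23 tumors (2.6%, 1.81% and 1.28%), 5, 5 and 4 with Xist (3.49%, 2.67% and 1.45%) and 2, 8 and 7 with copies summed (5.27%, 3.52% and 2.84%), and 5 in PTX_IP with 2 groups (2.84%). PTX_IT (8) had 13 with no filter (5.49%), 1 with Xist (3.61%) and 3 with copies summed (6.38%), and NCTD_IT (23) had 3 with Xist (5.68%). The counts above and those at an adjusted p are not all over the 98 pseudogenes of the main fit. With no filter more than 98 were tested, with 23 tumors 103 were, and summing copies put the 148 pseudogenes into 90 groups. A change in such a count is thus in part a change in the number of rows tested. With Xist the median was 0.25 in MIX_IP, 0.11 in PTX_IT and 0.045 in NCTD_IT.

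Leaving out 1 tumor at a time, the numbers at an unadjusted p ran from 5 to 26 in PTX_IP, 5 to 17 in NCTD_IP, 4 to 13 in MIX_IP, 2 to 20 in PTX_IT, 16 to 20 in NCTD_IT and 11 to 21 in MIX_IT, and the number at an adjusted p in NCTD_IT from 0 to 1. The medians ran, in that order, from 0.017 to 0.51, 0.21 to 0.44, 0.25 to 0.45, -0.33 to -0.12, -0.31 to -0.20 and -0.31 to -0.21. The share of all genes in these fits is not given, so the counts have no background to be read against. Each IP fit also leaves 1 tumor in a group, so nothing is concluded from the IP counts. The differences per 1000 parent counts ran from -27.8 to 53.3, 23.5 to 105, 37.6 to 119, -6.32 to 22.01, 31.2 to 76.9 and -1.57 to 55.5. Rpl9-ps7 in PTX_IP ran from -1.64 to 0.10, Rps18-ps3 in NCTD_IP from -0.74 to 0.69 and Rpl30-ps3 in PTX_IT from -0.63 to 3.12.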
